A study of Mus musculus with 2 samples.

Results

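CTCF sites that lie inside mouse genes with a Zfp number as their symbol are described here. A site is the summit of a peak in the authors' optimal list, which was thresholded by the irreproducible discovery rate (IDR), on chromosomes 1 to 19 and X of the mm10 build. A site was kept when its summit lay between 1 kb upstream of the start and the 3′ end of a GENCODE M21 protein-coding gene whose symbol is Zfp followed by digits only. This gave 363 sites of 54943, in 186 of 365 such genes, while 179 genes held none. CTCF was measured with ChIP-seq (sequencing of DNA recovered with an antibody) in 2 samples of lung from B6NCrl mouse embryos at day 14.5, male and female together. Both samples form 1 group and come from 1 record of powdered lungs that were pooled over several dissections, so the spread between them may be technical. There is no treated or mutant group, and lung holds many cell types, so a site cannot be assigned to one of them. Peak lists hold no read counts, so the depth behind a site is unknown.

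Zfp-named genes mostly encode C2H2 zinc finger proteins, DNA-binding proteins in which each finger reads a few neighbouring bases. Many also carry a KRAB domain, which recruits the corepressor Trim28 (KAP1) and with it histone H3 lysine 9 methylation, often at transposable elements. The fingers are usually encoded by a single last exon, and many of the genes lie side by side in families that arose by duplication. CTCF is itself a C2H2 zinc finger protein. It binds a long, asymmetric motif, stops loop extrusion by cohesin in an orientation-dependent way, and also occupies many CpG-rich promoters.

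The motif was represented by a matrix of 20 bases with the consensus TGGCCACCAGGGGGCACTAG. A site was counted as motif-bearing when a match on either strand lay wholly within 50 bp of its summit, at a score that 1.00% of windows shifted by 1 kb also reached. The sequences below are the best matches at the strongest motif-bearing sites of each kind and at related promoters on chromosome 17. They were read from the GRCm38.p6 assembly (the mm10 chromosomes) and run 5′ to 3′ on the strand of the motif, with the 20 matched bases in capitals and 5 flanking bases on each side.
Zfp219, exon other than the last, chr14:52008988-52009017, plus strand: agatgTAGCCGCCAGGGGGCGCTCGgaagc
Zfp664, intron, chr5:124900043-124900072, plus strand: ccatgCAGCCACCAGGAGGCGCTGGtgcac
Zfp362, intron, chr4:128776933-128776962, minus strand: cgccaAGTCCAGCAGGGGGCACAGTcccat
Zfp90, promoter, chr8:106415221-106415250, plus strand: gcagcCCCCCACTAGGAGGCAGGACctctg
Zfp113, promoter, chr5:138155880-138155909, minus strand: caaccTGGCCAGCAAGTGGCGCAGTctggt
Zfp398, promoter, chr6:47835589-47835618, plus strand: tgcggGGGCCGCCAGGGGGCGCGCTgtccc
Zfp444, last exon, chr7:6191573-6191602, minus strand: agcccTCACCACCAGAGGGCAGCACtgcct
Zfp574, last exon, chr7:25082681-25082710, plus strand: gtgtcTTGCCACTAGAGGTCCCCAAagcct
Zfp677, promoter, chr17:21383471-21383500, minus strand: tgcttTCTCCACTAGATGGTGGTCTtgtca
Zfp54, promoter, chr17:21422766-21422795, minus strand: ggcttTCACCACTAGATGGTGGTCTtgcca
Zfp51, promoter, chr17:21449831-21449860, minus strand: tgatgTTACCACTAGATGGCGGTCTgtcat
Zfp52, promoter, chr17:21534600-21534629, minus strand: ttcttTCACCACTAGATGGCGGACAtgtca

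Promoters held a larger share, and introns a smaller share, of the sites than in other genes. Each site was placed in the promoter (within 1 kb of the start of the gene record), the last exon of the transcript with the longest coding sequence, another exon or an intron, in that order. Of the 363 sites, 139 were in promoters (38.3%, 95% Wilson interval 33.4 to 43.4), 183 in introns (50.4%), 28 in other exons and 13 in last exons (3.58%, 2.10 to 6.03). Among the 31321 sites of other protein-coding genes, 18.9% were in promoters, 70.1% in introns and 3.65% in last exons. The intervals here and below cover counting error only, since neighbouring genes share sequence and are not replicates, and no test across samples was possible with 1 group.

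By gene, 116 of the 365 Zfp-named genes had a promoter site, 31.8% (27.2 to 36.7), where 26.8% of all protein-coding genes did. The difference from the 21390 other protein-coding genes was 5.10 percentage points (95% Newcombe interval 0.491 to 10.1). It fell to 2.80 points (-1.71 to 7.72) without replicate 1. The interval also included 0 without replicate 2 (4.40, -0.206 to 9.38), in the conservative list (3.52, -0.934 to 8.42), with promoters of 2 kb on each side (2.97, -1.83 to 8.06) and with all transcript starts (2.40, -2.43 to 7.51). Among the strongest 10000 sites alone it turned to -1.59 points (-2.87 to 0.651). An intron site was present in 88 Zfp-named genes, 24.1% (20.01 to 28.8), where 39.3% of all protein-coding genes had one, and the difference from other genes was -15.4 points (-19.6 to -10.8). Only 12 genes, 3.29% (1.89 to 5.66), had a last exon site, beside 5.35% of all protein-coding genes. That difference, -2.09 points, had an interval that included 0 (-3.52 to 0.295). The interval lay below 0 without replicate 1 (-2.71, -3.99 to -0.458), with the last exon of any transcript (-2.93, -4.43 to -0.470) and among the strongest 10000 sites (-1.39, -1.56 to -0.341). Other exons held a site in 27 genes (7.40%), beside 9.76% of all protein-coding genes. A site of any class was found in 50.96% of Zfp-named genes and in 57% of all protein-coding genes. The plot of genes with a site by position shows these shares.

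**Figure D1:**
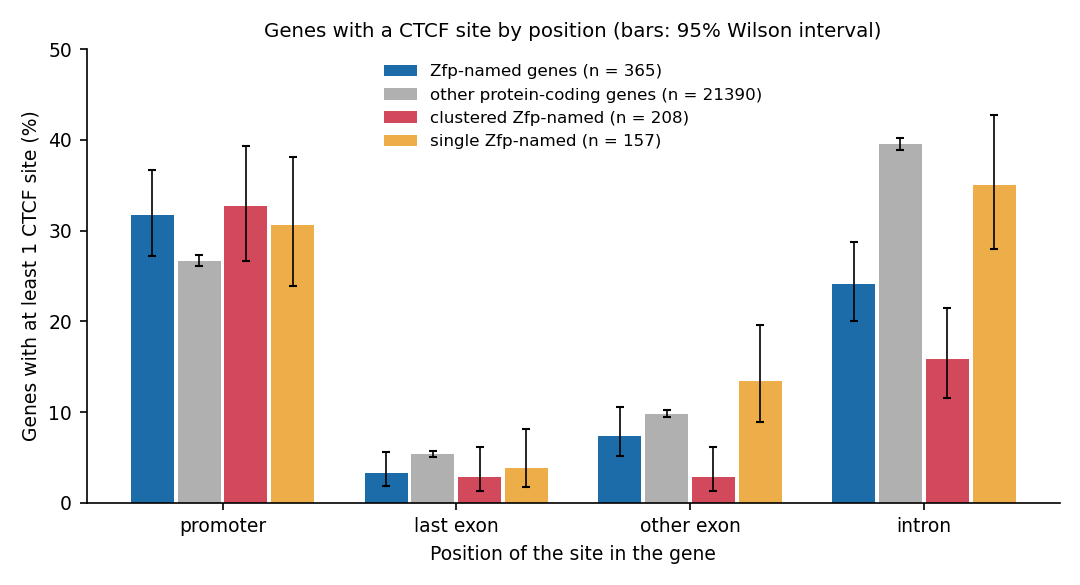
Share of genes with at least 1 CTCF site (y axis, %) by the position of the site (x axis), for Zfp-named genes, other protein-coding genes, and clustered and single Zfp-named genes; lines are 95% Wilson intervals. The Zfp-named bar is above the other genes' bar at promoters (31.8% against 26.7%) and below it at introns (24.1% against 39.6%), and clustered genes are lowest at introns (15.9%).

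Median gene length was 17.4 kb in both sets, but other genes were longer on average. The 365 Zfp-named genes covered 10.99 Mb and the 21390 other genes 1060 Mb. Density per length was therefore also taken, and the part of gene length in the differences above was not tested. Promoters of Zfp-named genes held 192 sites per Mb (95% exact Poisson interval 161 to 226), beside 154 (150 to 157) in other genes. Introns held 20.5 per Mb (17.6 to 23.7), beside 24.6 (24.3 to 24.9). The widest gap was in last exons, with 12.6 per Mb (6.70 to 21.5) against 37.0 (35.02 to 39.2), a ratio of 0.339 (0.197 to 0.586). The pooled list, which holds 300000 peaks without the IDR threshold, gave a smaller gap in last exons, 135 per Mb (114 to 160) against 184 (180 to 189). In that list 27.7% of Zfp-named genes and 22.3% of other genes had a last exon peak, the opposite order to the optimal list, and introns held 143 and 142 per Mb. The median last exon of a Zfp-named gene was 2490 bases long and that of another gene 1109 bases.

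**Figure D2:**
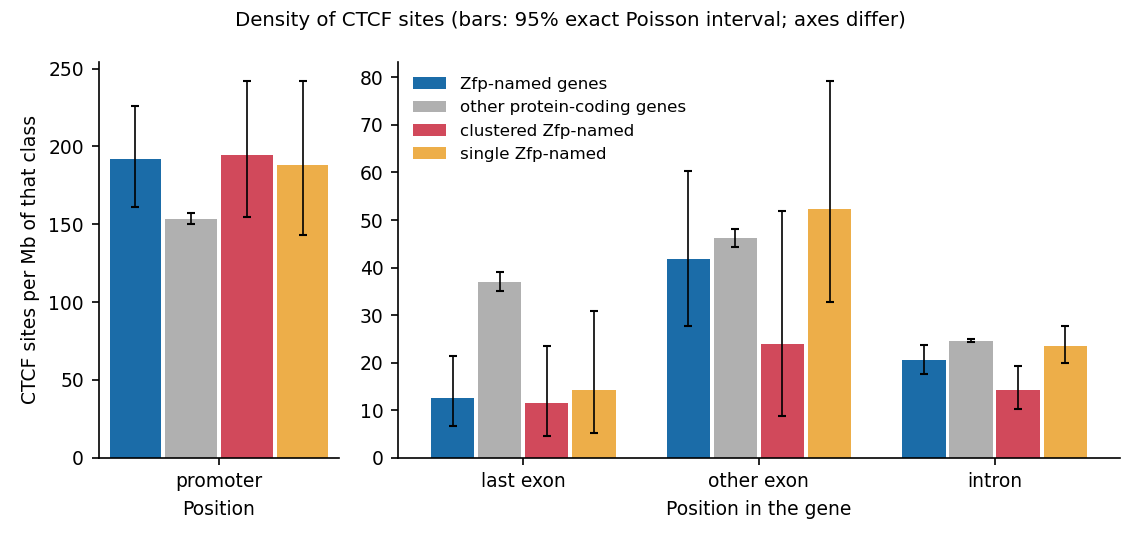
CTCF sites per Mb (y axes, which differ between panels) in promoters (left) and in last exons, other exons and introns (right), for the same 4 sets of genes; lines are 95% exact Poisson intervals. The last exon bar of Zfp-named genes (12.6 per Mb) is below that of other genes (37.0 per Mb), and the intervals do not overlap.

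The promoter sites lay on both sides of the annotated start, 49.6% of them upstream. Their median distance from it, regardless of direction, was 251 bp, beside 259 bp in other genes. Within 100 bp of the start lay 26.6%, and 26.1% of the promoter sites of other genes were as close. The strongest was at Zfp90, whose KRAB protein is known to bind the repressor REST, in a peak at chr8:106415126-106415429. Its summit was at -69 bp from the start, and its signal, the authors' own peak value, was 313 in the optimal list, 161 in replicate 1 and 152 in replicate 2. Zfp786 followed with 312 in the optimal list, 165 in replicate 1 and 147 in replicate 2. It was counted as without a motif match, though its best score of 9.73 bits was just under the threshold of 9.83. Zfp113 had a signal of 238 in the optimal list (132 in replicate 1 and 105 in replicate 2). Zfp398 had 234 (130 and 105), Zfp639 had 223 (129 and 92.3) and Zfp593 had 218 (117 and 102). These 6 were chosen by signal in a list derived from both replicates, so high values in each replicate follow from the choice. The lowest stood at percentile 97.2 of the replicate 1 list and 96.98 of the replicate 2 list. Those percentiles are on another scale than percentiles of the optimal list. Zfp639 and Zfp593 had no match. Signals of the replicates are unscaled, and replicate 1 was 1.28 times replicate 2 at the median site in these genes.

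Most promoter sites had no match to the matrix. A match was present at 24 of 139, 17.3% (11.9 to 24.4), beside 26.04% (24.9 to 27.2) of promoter sites in other genes and 59.2% of all optimal sites. None of these 139 sites had been used to learn the matrix. On the even-numbered autosomes and X, which gave no training sites, 7 of 50 had one (14.0%). Counted by gene, the larger difference was at promoters without a match. There, 26.3% of Zfp-named genes had such a promoter site, 20.5% of all protein-coding genes did, and the difference from other genes was 5.90 points (1.62 to 10.7). With a match the share was 6.58%, beside 7.45% of all protein-coding genes, a difference of -0.891 points (-3.04 to 2.15).

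CpG content differed between the sets of promoters. The median ratio of observed to expected CpG within 500 bp of the start was 0.610 in Zfp-named genes and 0.557 in others. It was 0.545 in clustered and 0.662 in single Zfp-named genes, whose promoter shares were 32.7% and 30.6%. Between 0.5 and 0.75, 40% of 155 Zfp-named promoters and 40.3% of 5558 others had a site. At 0.75 and above the shares were 37.5% of 80 and 40.8% of 5953. Between 0.25 and 0.5 they were 23.3% of 103 and 19.9% of 3796, and below 0.25 they were 0 of 27 (95% Wilson upper bound 12.5%) and 4.69% of 6083. Within each step the shares differed by less than the width of the Zfp-named interval, and the part of CpG content in the overall difference was not tested. Another gene's promoter also held the summit at 11 of the 139 sites, 3 in clustered genes and 8 in single ones.

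Intron sites held a match more often than promoter sites, in counts whose intervals do not overlap. A match was present at 105 of 183, 57.4% (50.1 to 64.3), beside 62.7% in introns of other genes, and at 51.4% of the 107 on chromosomes that gave no training sites. The strongest was at Zfp664, in a peak at chr5:124899924-124900196, with 414 in the optimal list, 231 in replicate 1 and 184 in replicate 2. Zfp362 had 396 (223 and 173), Zfp618 had 378 (210 and 169), Zfp950 had 371 (205 and 165), Zfp516 had 351 (182 and 170) and Zfp638 had 350 (207 and 145), in the same order of lists. All 6 had a match, and the lowest of their replicate values was 145. Zfp219, a single gene on chromosome 14 added after its values were seen, held the highest signal of all, 481 in the optimal list (267 and 214), in an exon other than the last.

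The 4 genes with the most sites were single genes. Zfp423, a multi-finger transcription factor known for its role in fat cell commitment and in the cerebellum, spans 298 kb and had 12 sites, all in introns. Their signals in the optimal list ran from 17.4 to 269. The highest had 149 in replicate 1 and 117 in replicate 2, and the lowest had 6.13 and 10.6. Zfp407 had 11 sites over 462 kb, from 21.7 to 299, and Zfp516 had 11 over 94.7 kb, from 15.3 to 351. Zfp64 had 9 in 62.3 kb, from 34.0 to 303. In all, 112 genes had 1 site, 35 had 2, and 39 had 3 or more, and the last group held 182 sites.

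**Figure D3:**
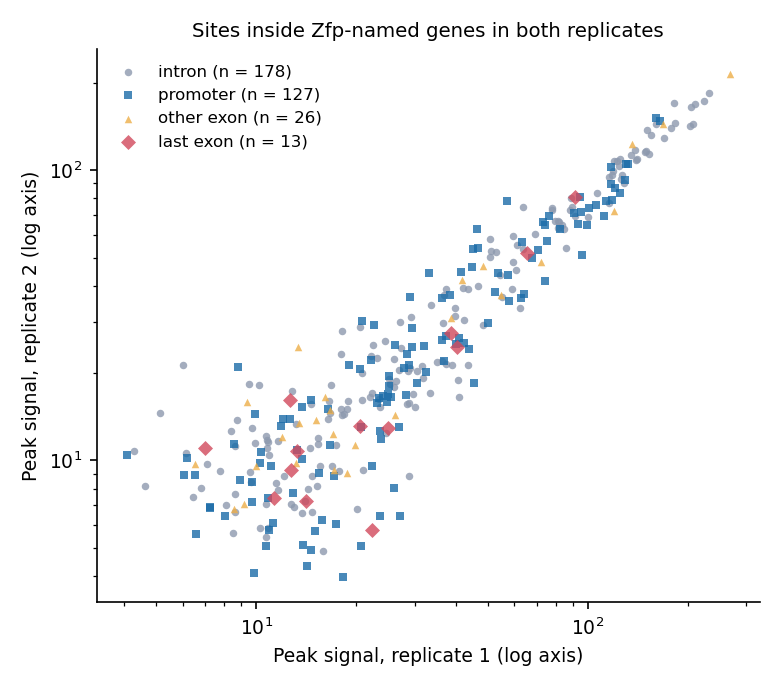
Peak signal in replicate 1 (x axis) and replicate 2 (y axis), both log axes and unscaled, for the 344 sites inside Zfp-named genes that had a peak in both replicate lists; each point is a site, coloured by its position. The points rise together from the weak to the strong end, and the site with the highest values is the Zfp219 exon site (267 and 214).

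By rank within the optimal list, the sites were weaker than most. The median signal was at percentile 36.8 in promoters, 42.7 in introns and 23.8 in last exons. In other genes it was 43.1, 48.2 and 57.6. Of the 363, 43 (11.8%) were among the strongest 10000 sites, where 18.2% of all sites are. None was in a last exon. The conservative list held 294 (81.0%), beside 87.5% of all optimal sites. Both replicate lists held 344 of them, replicate 1 held 352 and replicate 2 held 354. Of all 54943 optimal sites the counts were 53741, 54455 and 54123 in that order, which are larger shares. Across the sites in both, Spearman's rho between the replicates was 0.904, beside 0.934 for sites of other genes. It is a description over sites of 2 libraries from 1 record, in a list already selected for reproducibility.

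Last exons are where the fingers are usually encoded, and only 13 sites in 12 genes lay there. The strongest was at Zfp444, in a peak at chr7:6191490-6191682, with 175 in the optimal list, 91.4 in replicate 1 and 81.1 in replicate 2. Zfp574 had 118 (65.6 and 52.0), Zfp652 had 66.9 (40.4 and 24.6) and Zfp503 had 66.6 (38.7 and 27.5). Zfp251 had 37.2 (25.01 and 12.9), Zfp219 had 34.0 (20.6 and 13.2), Zfp148 had 29.7 (12.6 and 16.2) and Zfp78 had 28.3 (22.4 and 5.74). Zfp444 and Zfp574 stood above the rest in both replicates, and the other 11 sites ranked from percentile 6.85 to 52.2 of the optimal list, whose median signal was 62.3. Among them was Zfp36, the mRNA-destabilising protein tristetraprolin, whose fingers are of another type, with 23.4 (14.1 and 7.23).

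The last exon sites were placed against the coding sequence and the finger linkers. Coding sequence made up 43.4% of the 1036 kb of last exon bases, and 5 of the 13 summits were in it, while 8 were in the 3′ untranslated region. A degenerate DNA word for the conserved linker between neighbouring fingers was searched on the coding strand in the last exons and found 1665 times in 255 genes. Of the 13 summits, 0 lay within 100 bp of the centre of such a word (95% Wilson upper bound 22.8%), beside 20.8% of the last exon bases, so a difference was not detectable with 13 sites. The matrix matched across a linker word 5 times, and 0 of these matches had a site. Off the linker words, 7 of 54 matches had one, and 5 matches are too few to show a difference.

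A smaller share of the last exon matches had a site than in other genes. In Zfp-named genes 59 matches were found, 57.1 per Mb, beside 73.4 per Mb in other genes. Of the 59, 7 had a summit within 50 bp, 11.9% (5.87 to 22.5), beside 28.1% (26.4 to 29.9) in other last exons and 18.8% over all matches on these chromosomes. The difference from other genes was -16.3 points (-22.5 to -5.45). Matches of 15 bits or more stood at 7.74 per Mb in Zfp-named last exons and at 17.8 per Mb in others. At that score 3 of 8 had a site (37.5%, 13.7 to 69.4), beside 69.4% of 601. From 12 to 15 bits the counts were 0 of 21 (upper bound 15.5%) and 19.5% of 850, and under 12 bits they were 13.3% of 30 and 10.97% of 1021. At a stricter threshold of 18.4 bits the direction turned, with 1 of 1 in Zfp-named last exons and 91.3% of 242 in others. In introns, 13.2% (11.1 to 15.6) of 842 matches had a site, beside 19.5% in other genes, a difference of -6.28 points (-8.42 to -3.81), and at the stricter threshold the shares were 82.9% of 35 and 81.1%.

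**Figure D4:**
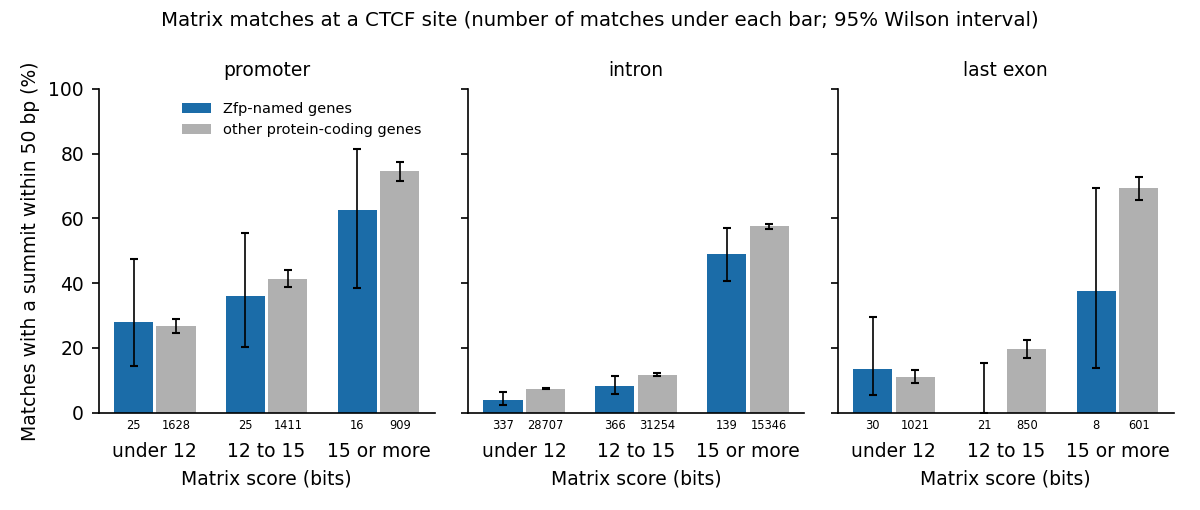
Share of matrix matches with a CTCF summit within 50 bp (y axis, %) by matrix score in bits (x axis), in promoters, introns and last exons of Zfp-named and other genes; the number of matches is under each bar and lines are 95% Wilson intervals. Shares rise with the score in every panel for other genes, and the Zfp-named last exon bars rest on 30, 21 and 8 matches.

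Sequence copies moved with these shares. A 31-base word centred on a position occurred once in the genome at 86.7% of Zfp-named last exon positions and 77.8% of intron positions, beside 90.7% and 89.1% in other genes. Over matches with such a unique word, 6 of 45 last exon matches had a site, 13.3% (6.26 to 26.2), beside 31.9% in other genes. In introns the shares were then 22.7% (19.05 to 26.8) and 26.4%, so the intron gap was smaller among unique matches and the last exon gap was not. Neither the read length nor the handling of reads with several alignments is given in the sources used here.

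Fewer clustered than single genes had a site, while no difference was detectable in promoters, in last exons or in sites per Mb over all classes. A site of any class was present in 43.75% of clustered and 60.5% of single genes, a difference of -16.8 points (-26.6 to -6.41). A gene was called clustered when another Zfp-named gene lay within 100 kb, which gave 208 clustered genes in 51 runs and 157 single genes. Promoter sites were present in 32.7% (26.7 to 39.3) of clustered and 30.6% (23.9 to 38.2) of single genes, a difference of 2.12 points (-7.57 to 11.5) that turned to -2.48 points with a promoter of 2 kb on each side. Last exon sites were present in 2.88% and 3.82%, a difference of -0.937 points (-5.48 to 2.92). Intron sites were present in 15.9% (11.5 to 21.4) of clustered and 35.03% (28.01 to 42.8) of single genes, a difference of -19.2 points (-28.04 to -10.2). Other exons held a site in 2.88% and 13.4%, a difference of -10.5 points (-16.9 to -4.97). Intron density was 14.3 per Mb (10.3 to 19.3) in clustered and 23.6 (19.9 to 27.8) in single genes. Over all classes, density was 32.2 per Mb (27.03 to 38.1) in clustered and 31.95 (27.9 to 36.4) in single genes. The ratio was 1.01 (0.815 to 1.25).

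Gene length and sequence copies moved with the difference in introns. The median length was 15.6 kb in clustered and 21.2 kb in single genes. Under 20 kb, intron sites were present in 14.7% of 129 clustered and 19.7% of 76 single genes, and from 20 to 50 kb in 17.3% of 75 and 31.3% of 48. Over 50 kb there were only 4 clustered genes, and 75.8% of the 33 single ones had an intron site. Unique 31-base words covered 66.0% of clustered and 83.6% of single intron positions. Over unique matches, 19.6% (13.8 to 26.97) of clustered and 24.1% (19.7 to 29.2) of single intron matches had a site. Their part in the difference was not tested.

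Genes were also divided by the KRAB domain. A pattern for the KRAB domain was found in the proteins of 150 genes, 121 of them clustered. These had a promoter site in 37.3% (30 to 45.3) of cases, beside 26.8% of all protein-coding genes, and an intron site in 15.3%, beside 39.3%. The 215 genes without the pattern had 27.9% (22.3 to 34.3) and 30.2%. Among clustered genes the intron shares were 16.5% of 121 with the pattern and 14.9% of 87 without it. Among single genes they were 10.3% of 29 (3.58 to 26.4) and 40.6% of 128 (32.5 to 49.3). Genes with 10 or more fingers had a last exon site in 1.92% (0.750 to 4.84) of 208 cases, and those with 0 to 4 fingers in 6.67% (2.62 to 15.9) of 60, with overlapping intervals.

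Among textbook members, Zfp568, a KRAB repressor of placental Igf2, had 2 sites. Its promoter signal was 165 in the optimal list (99.01 and 64.8 in the replicates) and its intron signal 148 (81.3 and 66.7). Zfp809, which silences retroviruses in embryonic stem cells, had 3 sites, the strongest in the promoter at 204 (125 and 83.4). Zfp57, which maintains methylation at imprinted regions, and Zfp42 (Rex1), a marker of pluripotent cells, had 0 sites each.

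Sites were spread unevenly over the runs. Of the 51 runs, 14 held none inside their genes. Some of these had summits between the genes, and chr7:4915217-5053723, with 6 genes, had 11 there, or 79.4 per Mb. Counting also summits between the genes, all runs together held 27.7 sites per Mb (24.2 to 31.6), and chromosomes 1 to 19 and X as a whole 21.5. Whole chromosomes include stretches far from genes, and the density inside other protein-coding genes was 31.1 per Mb. By sites inside the genes, the run with the most was on chromosome 17, chr17:21383748-22225616, with 15 genes from Zfp677 to Zfp994 and 16 sites. With summits between the genes it held 21, or 24.9 per Mb. On chromosome 6, chr6:47819266-48086593 held 7 genes and 12 sites, led by the Zfp786 promoter. On chromosome 7, chr7:29768552-30169750 held 15 genes and 11 sites, led by Zfp568, and chr7:6131491-6396915 held 6 genes and 10 sites, led by the last exon of Zfp444. With summits between the genes that run also held 21, or 79.1 per Mb.

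In the chromosome 17 run, 6 promoters held related sites with a match. The Zfp53 promoter, which lies between those of Zfp51 and Zfp52, held a site without one, with 26.1 in the optimal list (17.1 and 8.85 in the replicates). A second Zfp948 promoter site (79.2 in the optimal list) and a Zfp947 promoter site (21.7) also had no match. In all, 9 of the 15 genes had a promoter site. At the 6 sites with a match, the signals in the optimal list were 121 at Zfp677 (63.3 and 56.5 in the replicates), 177 at Zfp54 (100.3 and 74.1) and 139 at Zfp51 (74.1 and 65.0). They were 204 at Zfp52 (117 and 89.5), 69.1 at Zfp948 (36.4 and 36.3) and 59.1 at Zfp983 (32.02 and 24.7). The order of the first 4 was the same in both replicates, with Zfp52 highest and Zfp677 lowest. The summits lay at -258, -449, -516, -917, -571 and -524 bp from the starts, in that gene order. All 6 genes are on the plus strand, and all 6 motifs are on the minus strand.

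The windows around these summits resembled each other. Any pair of the 6 shared 124 to 141 identical bases (median 134) in windows of 201 bases. Pairing each of the 6 with each of 132 other promoter sites of Zfp-named genes gave a median of 101 and a maximum of 115. Alike windows also lay outside these promoters. They were at an intron site of Zfp948 in the same run (148 in the optimal list, 81.9 and 66.4 in the replicates) and an intron site of Zfp944 on chromosome 17 (166, 89.6 and 74.7). The promoter of Zfp65 on chromosome 13 (41.9, 23.2 and 15.8) shared 113 identical bases with the Zfp948 intron site. It is itself among the 132 other promoter sites, so it was no closer to the 6 than their maximum of 115. As the printed sequences show, Zfp677, Zfp54, Zfp51 and Zfp52 share the word CCACTAGATGG, the longest common to their matches. Searched on both strands, that word was at 5 of the 16 sites of the run (31.3%), at 11 of the 363 sites (3.03%) and at 720 of all 54943 (1.31%). The word and the set of promoters were chosen after the sequences were seen, so these counts are a description. Over all clustered genes, 3 of 13 promoter motifs were on the strand of the gene (23.1%, 8.18 to 50.3), beside 59.6% at promoters of other genes, and the 6 copies are among the 13.

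**Figure D5:**
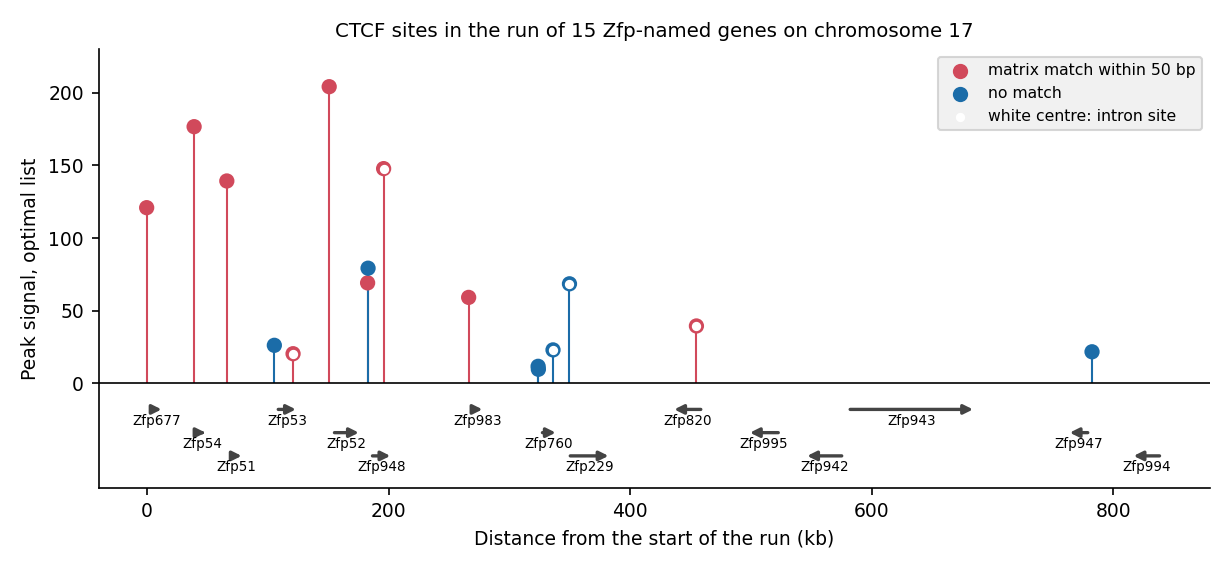
Peak signal in the optimal list (y axis) against distance from the start of the chromosome 17 run in kb (x axis) for its 16 sites; arrows are the 15 genes pointing in the direction of transcription, red marks a site with a matrix match, blue one without, and a white centre an intron site. The strongest sites are toward the left end, with the Zfp52 promoter at 204, the Zfp54 promoter at 177 and a Zfp948 intron site at 148.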

How the data were processed

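CTCF ChIP-seq gave 2 samples of 1 group. Per the deposited README, both replicate lists used 1 control file, and the optimal and conservative lists derive from these and the pooled list. Neither aligner, peak caller nor IDR threshold is given in the sources used here. The authors' peak signal was used as deposited and is not scaled between lists. Other units in the deposited files are summit offsets.

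Sites were assigned to genes of GENCODE M21 in Python 3.11.15 (numpy 2.4.6, pandas 2.3.3, Biopython 1.88). To learn the matrix, 15 rounds were run on 3000 top sites of odd-numbered autosomes. KRAB domains and fingers were counted by pattern in translated coding sequence. Tested on simulated data, the search found 1961 of 2000 planted motifs, and a second rule gave 1825 of 1825 positions the same class. The members and lists were chosen with earlier results of these data known.

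Named were the 6 strongest promoter and intron sites, the 8 strongest last exon sites, and the 4 genes and 4 runs with most sites. Zfp57, Zfp568, Zfp809, Zfp42, Zfp36 and Zfp90 were named whatever their values. A site with a linker-overlapping motif was also to be named, but there was none. Zfp219 and the chromosome 17 promoters were added after their values were seen. Alternatives were other peak lists, windows, transcript models, cluster rules and matrix thresholds.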

Additional observations from a re-analysis of the deposited data

How the results depend on the processing

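Of 213 values recomputed for 26 results under 14 settings, 180 stayed within their spread or counting interval, 24 moved and 9 reversed. No paired analysis was possible because there is 1 group. With the strongest 10000 sites only, fewer sites are counted by construction. Zfp-named genes with a promoter site were then 2.74%, -1.59 points from other genes, with a last exon site 0%, and with an intron site 6.03%, -6.99 points from other genes. Promoters then made up 23.3% of sites, introns 69.8% and last exons 0%. The motif was at 50% of promoter and 80% of intron sites, and on the gene strand in 80% and 37.5%. Median percentiles were 85.6 and 90.9, the clustered minus single promoter difference -0.781 points, the ratio of clustered to single density 0.386, the last exon density ratio 0, and the difference in intron matches at a site -1.54 points. The clustered to single density ratio, 1.01, was 0.937 in the conservative list and 0.956 to 1.02 without 1 replicate. With 500 bp promoters, 26.6% of genes had a promoter site and promoters made up 29.8% of sites. With 2 kb the clustered minus single promoter difference was -2.48 points. With all transcript starts it was -2.16 points, 37.0% of genes had a promoter site, and promoters made up 47.9% and introns 44.9% of sites. With the strict threshold the motif was at 2.16% of promoter, 7.69% of last exon and 15.8% of intron sites, and on the gene strand at 0% of last exon sites. The difference in matches at a site was then 8.68 points in last exons, where only 1 match was counted, and 1.79 points in introns. The cause of these changes was otherwise not tested. Unknown depth limits all counts of absent sites.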

Other observations

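Genes that act with KRAB zinc finger proteins were a list of 16 corepressor, heterochromatin, nucleosome remodelling and DNA methylation genes. A promoter site was present at 3 of them (18.8%, beside 26.8% of all protein-coding genes), Hdac1, Dnmt3a and Smarcad1. The Dnmt3a promoter, of a de novo DNA methyltransferase, had the highest promoter signal of the list, 166 in the optimal list. An intron site was present in 15 of the 16 (39.3% of all protein-coding genes had one), and Cbx3, a heterochromatin protein 1 gene, had no site. Trim28, the corepressor that KRAB domains bind, had 1 exon and 6 intron sites, of which the strongest reached 273.

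Some intron sites share sequence across chromosomes. Windows of 201 bases with a short word in common were linked at 70% identity or more over at least 150 aligned bases. Links were chained into sets, so 2 sites of a set need not resemble each other directly. Some links are weak: a Zfp64 and a Zfp647 site shared 110 identical bases, below the maximum of 115 found above for other promoter sites. The largest set held 36 sites on 13 chromosomes, of which 28 were in introns, beside 50.4% of the 363 sites. A matrix match was present at 27 of the 36, beside 41.3% of the 363 sites and 59.2% of all optimal sites. The summit was a repeat-masked base at 25 of the 36, beside 13.2% of the 363 sites and 19.6% of all optimal sites. The signals of the 36 sites ran from 16.4 to 162.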
